A study of Mus musculus with 15 samples.

Results

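The Gpr-named genes were taken as every row of the count table whose symbol is Gpr followed by a number, which gave 86 of 18804 genes. RNA was sequenced from white adipocytes differentiated in culture from mesenchymal stem cells, which came from ears of C57BL/6J mice without any genetic change. All cells received the same adipogenic mixture of methylisobutylxanthine, dexamethasone, insulin and a thiazolidinedione (named as troglitazone in the labels), and all were collected 16 days after differentiation began. The day 0 group stayed at 37°C, cooling to 31°C started on day 15 in the day 1 group and on day 4 in the day 12 group, with 5 libraries per group and 15 in all. The sources used here give neither the age of the donor mice nor the origin of replicate libraries (animals or dishes), so the tests measure the spread between libraries only. Because the day 12 group was cooled from day 4 onwards, days of cooling and the stage of differentiation at which cooling began cannot be told apart.

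G protein-coupled receptors cross the membrane as a bundle of helices and pass a signal from a ligand outside the cell to heterotrimeric G proteins inside it. Many were found by sequence before any ligand was known and received a Gpr number, and a number of these so-called orphans were later assigned lipids, organic acids, protons, peptides or matrix proteins as ligands. In adipocytes such receptors are best known for setting the rate of lipolysis through cAMP, with lactate as an inhibitory ligand.

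The symbols in the count table are older names, and 21 of the 86 carry another name in the GENCODE annotation, such as Hcar1 for Gpr81 and Gper1 for Gpr30. The name does not mark a single family. By textbook class, 14 were receptors for lipids and other metabolites, 3 were proton sensors, 8 were receptors for peptides, proteins or ions, 31 were rhodopsin-like (class A) orphans, 16 were adhesion receptors, 3 were class C orphans and 11 were genes of multi-pass membrane proteins outside the usual receptor classes, 1 of them a pseudogene (Gpr137b-ps).

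Of the 86 genes, 45 passed the filter on low counts and are called expressed here, which is 52.3% against 76% of all genes in the table. Counts per library totalled 64648178 to 133270973, and levels are given in CPM, the count scaled to a library of 1000000. A mean of 1 CPM was reached in at least 1 group by 30 of the Gpr-named genes, 10 CPM by 18 and 50 CPM by 8. The other 15 tested genes lay under 1 CPM in every group. The 41 genes that were not tested had a highest count in any library of 1 to 43, and 28 of them never exceeded 10 counts. As examples picked after their values were seen, the untested genes included the fatty amide and lysophospholipid receptor Gpr119, the lysophosphatidylinositol receptor Gpr55, the constitutively active receptor Gpr3, and Gpr1, a receptor for the adipokine chemerin. Summed over all 86 genes, the level was 832.4 to 864.8 CPM at day 0, 915.5 to 951.1 CPM at day 1 and 896.5 to 921.8 CPM at day 12.

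**Figure D1:**
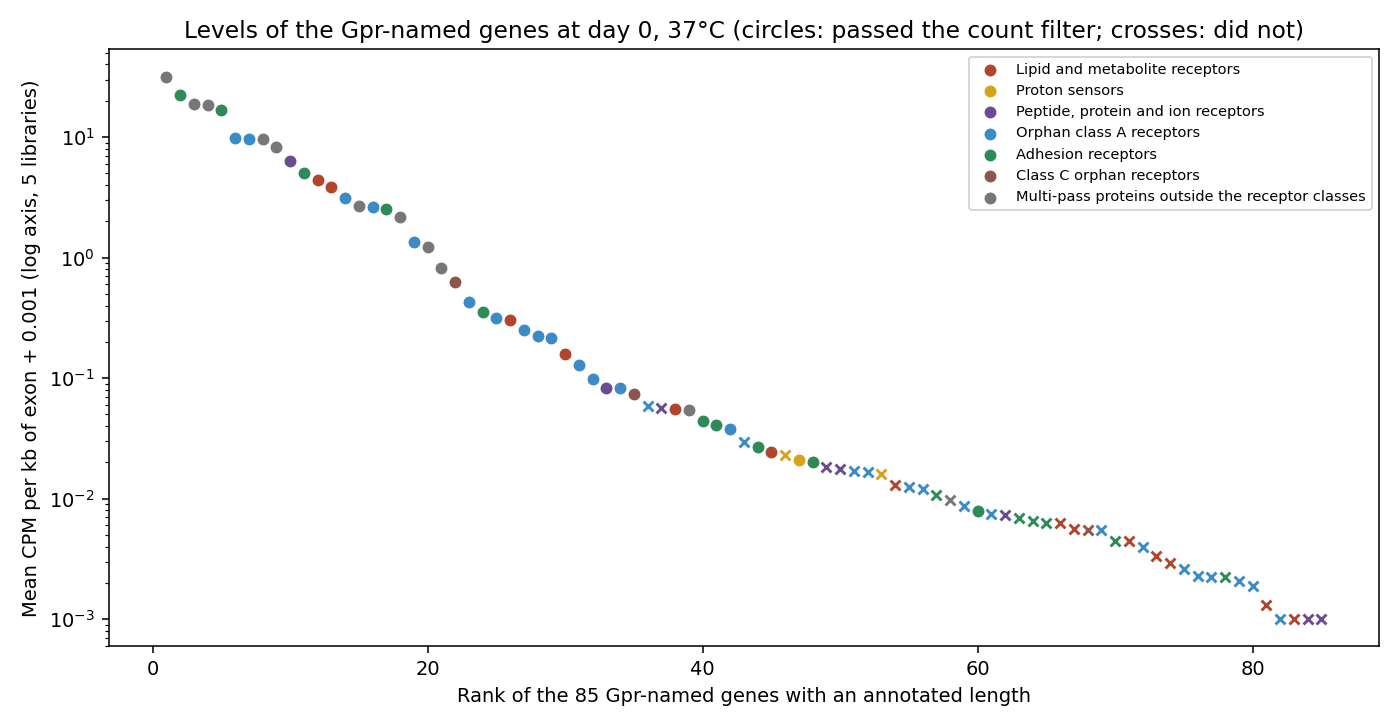
Mean level at day 0 (37°C) of the 85 Gpr-named genes with an annotated length, in CPM per kilobase of exon on a log axis with 0.001 added, in order of level. Circles are genes that passed the count filter and crosses those that did not, coloured by class. Multi-pass proteins and adhesion receptors fill the top of the order, led by Gpr108 at 31.7 CPM per kb, while crosses fill its lower end.

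Compared per kilobase of annotated exon, the highest levels at day 0 belonged to Gpr108 (31.7 CPM per kb), Gpr124 (22.4), Gpr180 (18.9), Gpr137b (18.6) and Gpr64 (16.9). Gpr108, Gpr180 and Gpr137b are multi-pass proteins, of which Gpr108 sits in the Golgi and Gpr137b in the lysosome. The adhesion receptors Gpr124 and Gpr64 were thus the highest of the receptors in the usual sense. By class, 10 of 11 multi-pass proteins and 10 of 16 adhesion receptors were expressed, against 14 of 31 class A orphans, 6 of 14 lipid and metabolite receptors, 2 of 8 peptide, protein and ion receptors, 1 of 3 proton sensors and 2 of 3 class C orphans.

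The adipocyte identity of the cultures was checked with 8 marker genes, whose summed level was 2410 to 2710 CPM at day 0, 2990 to 3200 at day 1 and 2600 to 2830 at day 12. Of the 8, 2 were called higher and 4 lower at day 12, with Adipoq at 1095, 1126 and 464 CPM. All 4 markers of dividing cells were higher at day 12, with a sum of 138 to 166 CPM against 47.0 to 57.2 at day 0, and stromal progenitor markers stood at 1290 to 1360 CPM at day 0 and 1110 to 1140 at day 12. Mesothelial markers rose from 2.06 to 2.25 CPM at day 0 to 23.4 to 38.3 at day 12, nearly all of it Msln. The part of these shifts in the results below was not tested. In bulk RNA, fewer cells of a type and less of an RNA per cell cannot be told apart.

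A gene was called when its Benjamini-Hochberg adjusted p over all 14293 tested genes was under 0.05 and its fold change over 1.5, by the quasi-likelihood test of edgeR. After 1 day at 31°C, 8 of the 45 tested Gpr-named genes were higher (17.8%, against 7.71% of all tested genes) and 14 were lower (31.1%, against 13.4%). After 12 days, 11 were higher (24.4%, against 13.0%) and 13 were lower (28.9%, against 16.2%). Between day 1 and day 12, 10 were higher at day 12 (22.2%, against 10.6%) and 8 lower (17.8%, against 8.53%). Both comparisons with day 0 share the same 5 control libraries. Scaling to total counts, which moves the median log2 fold change of all tested genes to 0.205 at day 12, called 15 higher and 12 lower at day 12 (against 2982 and 1668 of all genes, in place of 1852 and 2320). In all, 12 tested genes were called in none of the 3 comparisons.

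The median log2 fold change of the 45 genes was -0.16 at day 1 and -0.05 at day 12, beside -0.01 and 0.01 for all tested genes. Among the 30 genes that reached 1 CPM, 8 rose and 8 fell at day 1. That is 26.7% each, against 7.03% and 12.1% of the 12448 genes of the whole table at that level. At day 12, 8 rose and 7 fell (26.7% and 23.3%, against 11.7% and 15.1%). The level is that of the highest group, so a gene can enter through the group where it was high. Gpr30, Gpr63 and Gpr84 reached it only at day 12 and Gpr149 only at day 0, so calls in this set are partly built in. With 1 CPM required on average over all libraries, 27 Gpr-named genes were left, and 6 rose and 7 fell at each day. Of all 12138 genes kept that way, 768 rose and 1435 fell at day 1, and 1322 and 1770 at day 12. The Gpr-named genes therefore moved in both directions, and the classes are described in turn below.

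**Figure D2:**
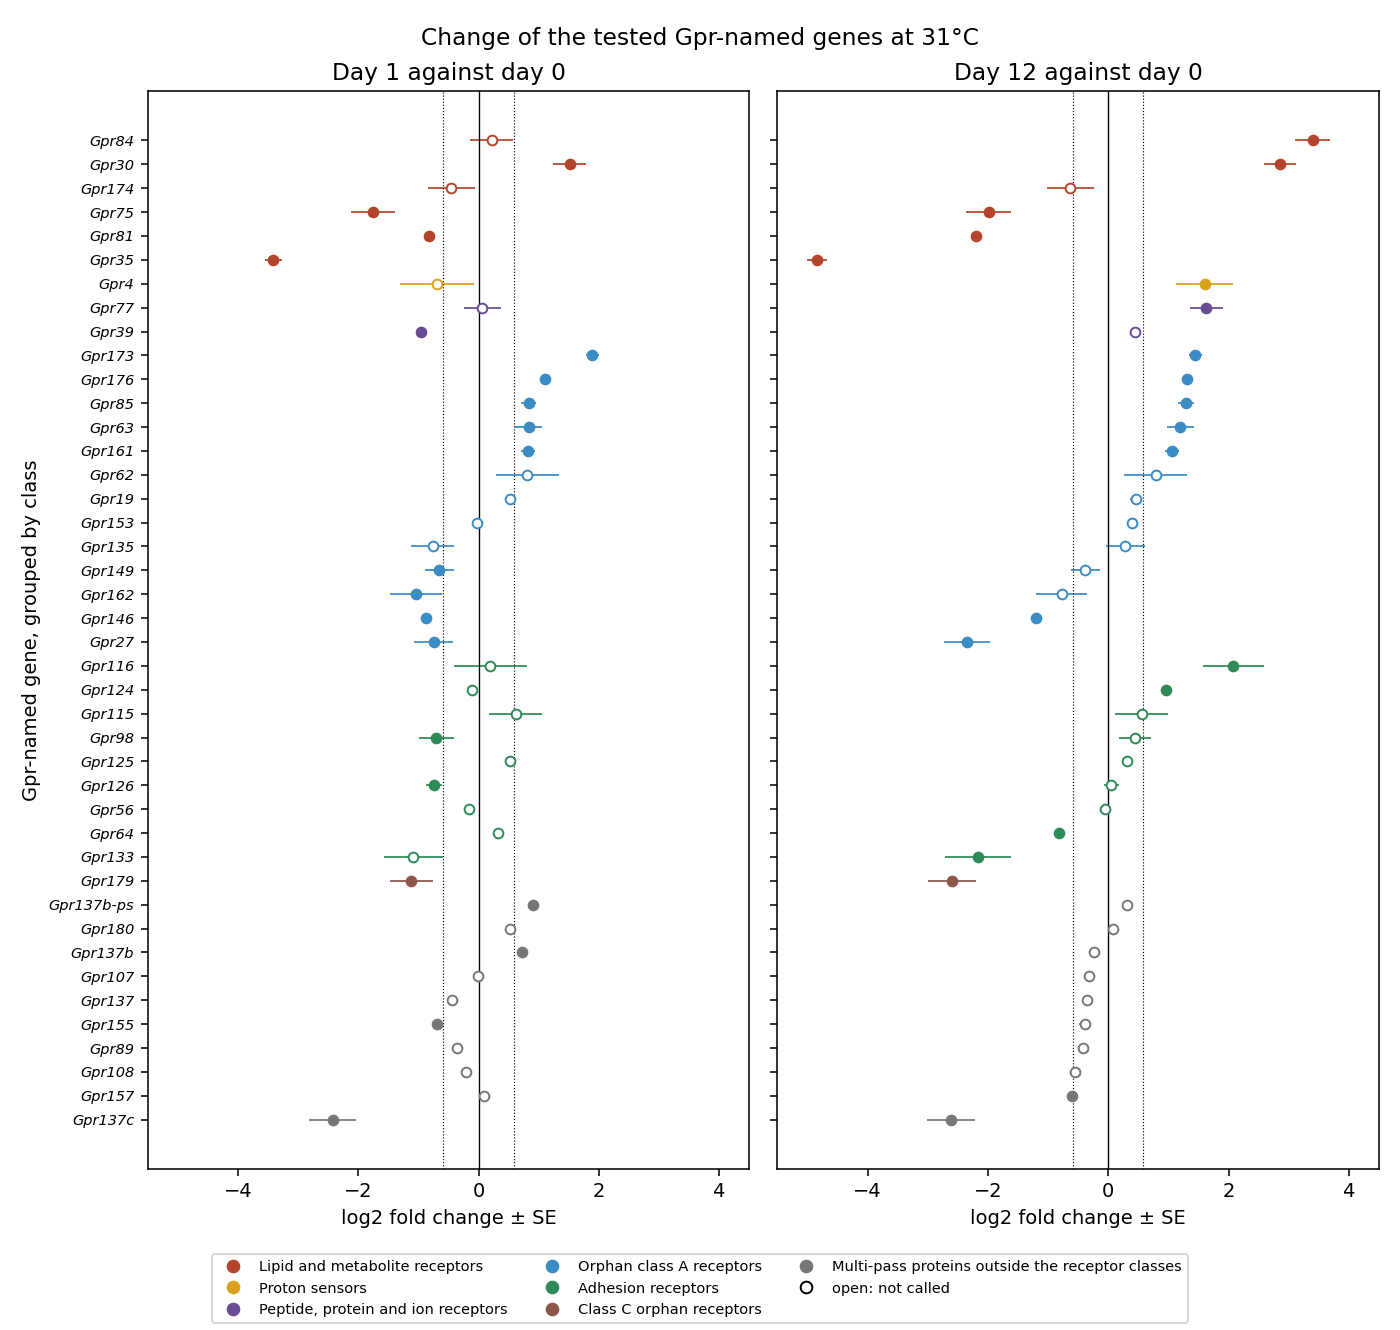
Log2 fold change with its standard error for 42 of the 45 tested Gpr-named genes, at day 1 (left) and day 12 (right) against day 0, grouped and coloured by class. Filled points were called, open points were not, and the dotted lines mark a 1.5-fold change. Gpr35 lies at the far left of both panels, and Gpr84 and Gpr30 at the far right of the day 12 panel.

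The 6 expressed receptors for lipids and metabolites included the genes at both ends of the range. Of these, 1 rose and 3 fell at day 1, and 2 rose and 3 fell at day 12, while Gpr174, a lysophosphatidylserine receptor of lymphocytes, was not called and is named only as the remaining one of the 6. The sequences around the annotated start sites of the 4 members that reached 1 CPM are shown because these genes moved in opposite directions in the same cells. Each is 300 bases on the gene's own strand from RefSeq (GRCm38.p6), 250 before the start and 50 after it, with capitals marking a motif match:
Gpr35, first start (chr1:92972869-92973168, plus strand): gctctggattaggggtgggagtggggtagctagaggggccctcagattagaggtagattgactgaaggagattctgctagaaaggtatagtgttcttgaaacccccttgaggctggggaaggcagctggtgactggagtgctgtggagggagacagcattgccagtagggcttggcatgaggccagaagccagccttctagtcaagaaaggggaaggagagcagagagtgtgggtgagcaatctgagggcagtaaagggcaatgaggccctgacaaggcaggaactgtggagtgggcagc
Gpr35, second start (chr1:92978653-92978952, plus strand): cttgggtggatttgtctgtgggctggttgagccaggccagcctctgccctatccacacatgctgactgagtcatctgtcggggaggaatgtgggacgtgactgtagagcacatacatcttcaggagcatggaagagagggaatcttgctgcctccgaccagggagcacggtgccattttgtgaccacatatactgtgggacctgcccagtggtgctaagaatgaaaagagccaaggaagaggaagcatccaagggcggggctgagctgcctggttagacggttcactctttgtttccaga
Gpr81 (chr5:123879954-123880253, minus strand): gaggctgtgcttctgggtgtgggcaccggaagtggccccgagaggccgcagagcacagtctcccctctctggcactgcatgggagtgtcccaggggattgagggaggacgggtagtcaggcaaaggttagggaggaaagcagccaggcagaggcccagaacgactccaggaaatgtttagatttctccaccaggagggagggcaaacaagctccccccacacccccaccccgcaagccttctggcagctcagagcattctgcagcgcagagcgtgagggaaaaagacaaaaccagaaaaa
Gpr84 (chr15:103310389-103310688, minus strand): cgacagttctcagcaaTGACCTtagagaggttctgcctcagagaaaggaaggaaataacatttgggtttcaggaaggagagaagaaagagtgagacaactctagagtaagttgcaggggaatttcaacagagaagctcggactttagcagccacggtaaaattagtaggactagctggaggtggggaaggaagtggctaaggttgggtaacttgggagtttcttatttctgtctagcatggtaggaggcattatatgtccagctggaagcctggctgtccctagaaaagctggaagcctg
Gpr30 (chr5:139422929-139423228, plus strand): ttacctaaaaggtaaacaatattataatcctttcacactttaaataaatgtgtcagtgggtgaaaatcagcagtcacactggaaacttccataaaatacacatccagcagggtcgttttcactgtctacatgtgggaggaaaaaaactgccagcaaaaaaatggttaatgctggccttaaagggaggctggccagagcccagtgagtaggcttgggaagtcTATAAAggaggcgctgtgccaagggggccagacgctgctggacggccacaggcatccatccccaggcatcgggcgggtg

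A total of 4 motifs were searched on both strands. The nuclear receptor hexamer AGGTCA was found once, reversed, 234 bases before the start of Gpr84, and occurs in 16.3% of 32851 promoter windows of this length. The TATA box TATAAA was found once, 29 bases before the start of Gpr30, and occurs in 13.6% of the windows. The cAMP response element TGACGTCA (1.79% of windows) and the CCAAT box (37.4%) matched none of the 5 windows shown. A match is a string of letters in these windows and not evidence of binding.

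Gpr35 (chr1:92950865-92986391, plus strand) encodes a receptor for which the tryptophan metabolite kynurenic acid is a proposed ligand. Its level was 19.3, 17.4, 23.8, 15.2 and 17.4 CPM in the 5 libraries at day 0, 1.89, 2.00, 1.59, 1.42 and 1.85 at day 1 and 0.501, 0.353, 0.656, 1.11 and 0.703 at day 12. The 3 groups were fully separated, with the day 12 libraries lowest. Gpr35 was 10.6-fold lower at day 1 (log2 fold change -3.41 ± 0.143 SE, adjusted p = 3.59e-16, edgeR quasi-likelihood) and 28.5-fold lower at day 12 (log2 -4.84 ± 0.164, adjusted p = 2.71e-18). The further difference between day 12 and day 1 was 2.68-fold lower (log2 -1.42 ± 0.195, adjusted p = 7.32e-07, edgeR).

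Gpr81 (Hcar1, chr5:123876736-123880020, minus strand) encodes the lactate receptor, which couples to inhibitory G proteins and restrains lipolysis in fat cells. Its level was 14.2, 15.0, 15.7, 14.3 and 13.6 CPM at day 0, 8.74, 8.43, 7.52, 8.30 and 8.04 at day 1 and 2.86, 3.08, 3.56, 3.29 and 3.09 at day 12. Each group lay wholly below the one before it. Relative to day 0 the level was 1.77-fold lower at day 1 (log2 -0.83 ± 0.0605 SE, adjusted p = 1.18e-11, edgeR) and 4.59-fold lower at day 12 (log2 -2.20 ± 0.0660, adjusted p = 2.69e-19). The step from day 1 to day 12 was 2.59-fold lower (log2 -1.37 ± 0.0676, adjusted p = 8.69e-15, edgeR).

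Gpr84 (chr15:103308235-103310612, minus strand) encodes a receptor for medium-chain fatty acids that is best known from macrophages and neutrophils. Its level was 0.436, 0.291, 0.207, 0.114 and 0.317 CPM at day 0, 0.410, 0.667, 0.217, 0.307 and 0.0882 at day 1 and 2.94, 2.76, 2.93, 3.36 and 2.77 at day 12. The day 0 and day 1 libraries overlapped, and every day 12 library lay above all of them. At day 12 Gpr84 was 10.5-fold higher relative to day 0 (log2 3.40 ± 0.297 SE, adjusted p = 2.27e-10, edgeR) and 9.06-fold higher relative to day 1 (log2 3.18 ± 0.300, adjusted p = 1.55e-09), whereas at day 1 it was not called (log2 0.22 ± 0.357). The day 0 and day 1 values rest on 9 to 55 counts per library and the day 12 values on 219 to 293. In GENCODE, 39.5% of its exon bases lie on the opposite strand of another annotated gene, Gm49482, and the counting was not stated to use strand. Macrophage and leukocyte markers were measured beside it. Of 9 such genes counted, 5 were tested, and their sum was 25.8 to 32.8 CPM at day 0, 41.6 to 47.8 at day 1 and 28.3 to 32.3 at day 12, mostly Cd14 (23.8 CPM at day 12) and Cd68 (5.14). At day 12, 1 of the 5, Csf1r, was higher (0.199, 0.841 and 0.562 CPM at days 0, 1 and 12), the macrophage marker Emr1 stood at 0.267, 0.119 and 0.165 CPM, and Fcgr1 had no counts in any day 12 library. Their part in the rise of Gpr84 was not tested.

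Gpr30 (Gper1, chr5:139423151-139427800, plus strand) encodes a membrane receptor reported to respond to oestrogens. Its level was 0.198, 0.0969, 0.167, 0.114 and 0.120 CPM at day 0, 0.448, 0.417, 0.511, 0.321 and 0.343 at day 1 and 1.21, 0.883, 1.18, 0.713 and 1.17 at day 12. The groups did not overlap and rose in that order. Gpr30 was 2.86-fold higher at day 1 (log2 1.52 ± 0.276 SE, adjusted p = 3.08e-05, edgeR), 7.23-fold higher at day 12 (log2 2.85 ± 0.259, adjusted p = 4.42e-10) and 2.53-fold higher at day 12 against day 1 (log2 1.34 ± 0.233, adjusted p = 2.07e-05). It remained a low gene, with 9 to 25 counts per library at day 0 and 50 to 121 at day 12. Gpr75, for which an arachidonic acid metabolite is a proposed ligand, moved the other way below 1 CPM. It ranged over 0.730 to 1.04 CPM (day 0), 0.0588 to 0.403 CPM (day 1) and 0.0930 to 0.425 CPM (day 12) (log2 -1.76 ± 0.364 and -1.99 ± 0.370 SE, both called).

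**Figure D3:**
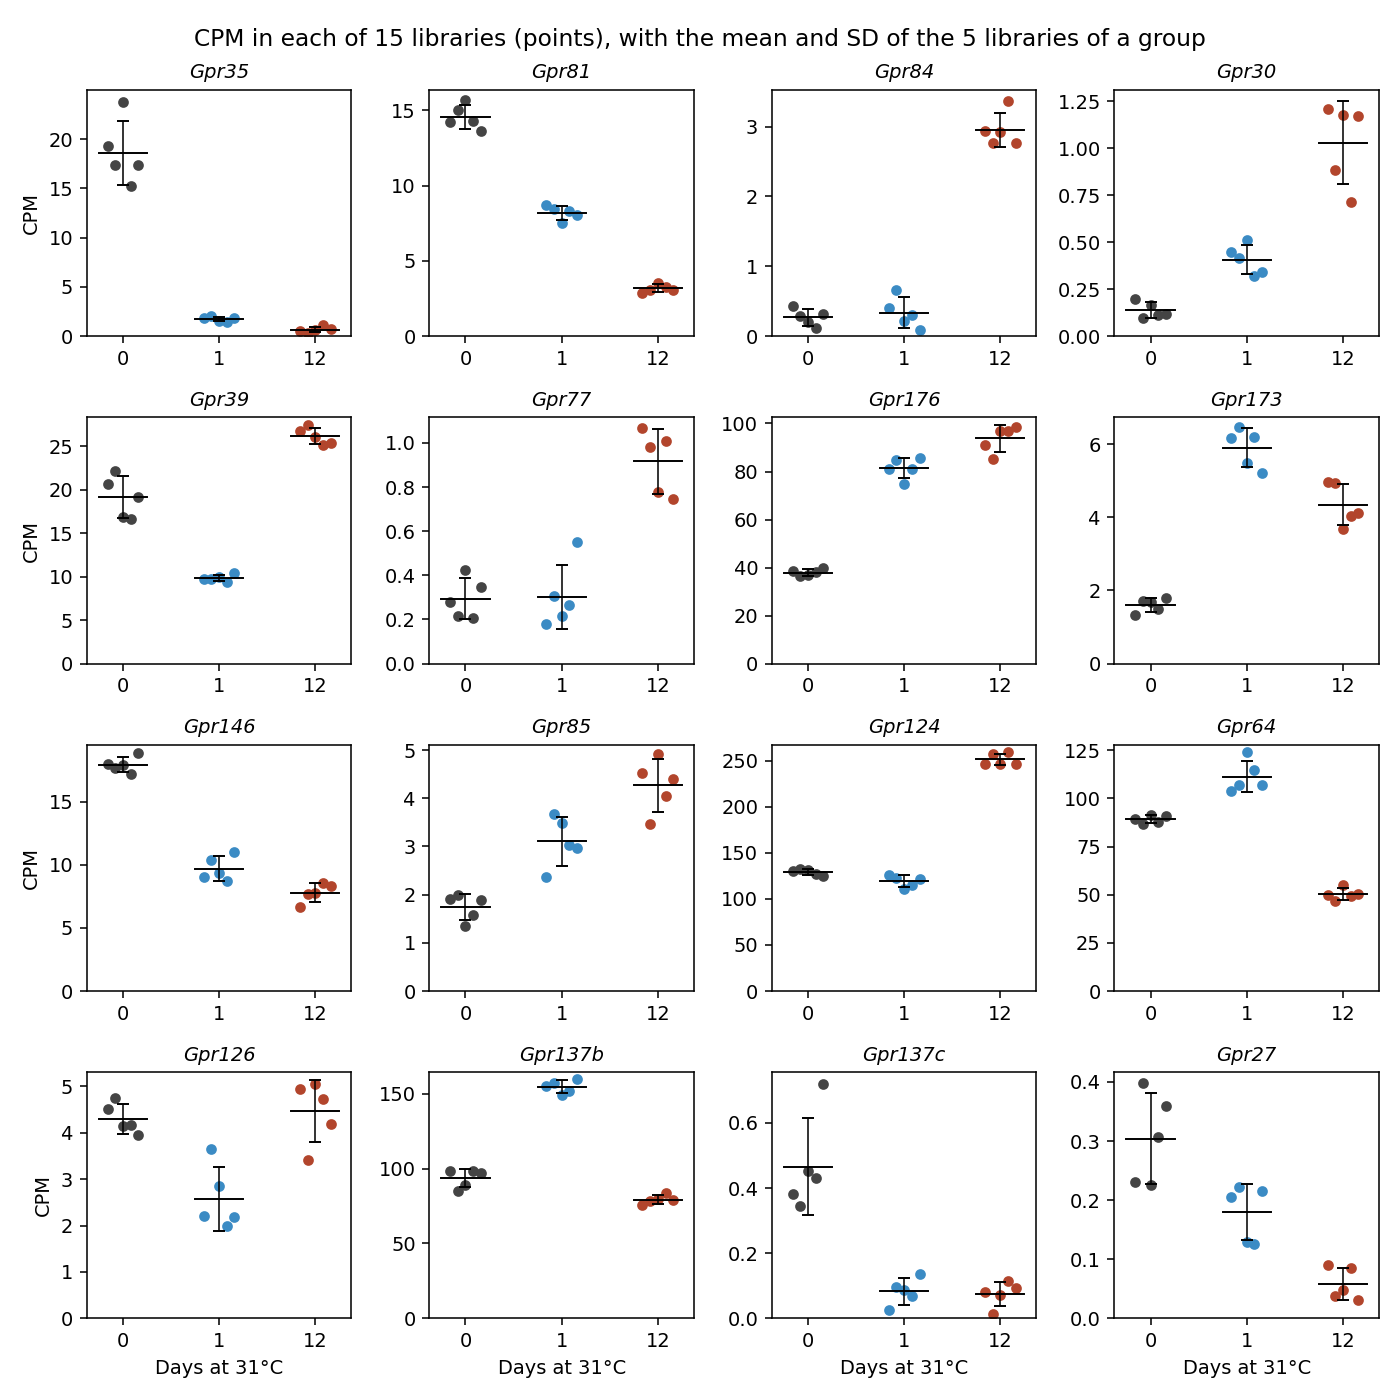
CPM of 16 called Gpr-named genes in each of the 15 libraries against days at 31°C, each panel on its own linear axis from 0, with the mean (bar) and SD of 5 libraries. Gpr35 and Gpr81 step down, Gpr30 steps up, Gpr84 and Gpr124 stand apart only at day 12, and Gpr39 and Gpr137b turn at day 1 in opposite directions.

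Of the 8 receptors for peptides, proteins or ions 2 were expressed, and neither was higher at day 1. Gpr39 (chr1:125676995-125873862, plus strand) encodes a receptor activated by zinc ions. Its level was 20.7, 22.2, 16.9, 16.6 and 19.2 CPM at day 0, 9.74, 9.78, 9.95, 9.40 and 10.4 at day 1 and 26.7, 27.4, 26.1, 25.1 and 25.4 at day 12. The day 1 libraries lay below all others and the day 12 libraries above all others. Gpr39 was thus 1.94-fold lower at day 1 (log2 -0.95 ± 0.0635 SE, adjusted p = 2.08e-12, edgeR) and 2.65-fold higher at day 12 relative to day 1 (log2 1.41 ± 0.0634, adjusted p = 1.72e-15). Against day 0 the day 12 difference of 1.37-fold higher (log2 0.45 ± 0.0600, adjusted p = 3.04e-07, edgeR) missed the fold limit, and it passed with scaling to total counts (log2 0.64). The gene shares 39.9% of its exon bases with Lypd1 on the opposite strand, whose level was 11.1 ± 2.11, 8.74 ± 0.772 and 10.7 ± 1.04 CPM (SD, n = 5) at days 0, 1 and 12 and which was called in no comparison.

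Gpr77 (C5ar2) encodes a receptor that binds the complement fragment C5a without strong G protein coupling. Its level was 0.278, 0.215, 0.423, 0.205 and 0.349 CPM at day 0, 0.179, 0.306, 0.217, 0.265 and 0.549 at day 1 and 1.07, 0.984, 0.777, 1.01 and 0.744 at day 12. All day 12 libraries lay above the others, while days 0 and 1 overlapped. The day 12 level was 3.10-fold higher against day 0 (log2 1.63 ± 0.277 SE, adjusted p = 1.05e-05, edgeR), and the macrophage and leukocyte marker values given for Gpr84 stand beside it too. Of the 3 proton sensors only Gpr4 passed the filter on low counts. Gpr4 ranged over 0.0327 to 0.0796 CPM (day 0), 0 to 0.0784 CPM (day 1) and 0.134 to 0.291 CPM (day 12), where it was higher (log2 1.60 ± 0.478 SE). A count of 0, found in 1 day 1 library, allows up to 0.0417 CPM there, counting error only. The level rests on 11 to 24 counts per library at day 12, against 3 to 9 at day 0 and 0 to 8 at day 1. Gpr4 therefore passed the filter only through the day 12 libraries, the group where it was high.

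The 14 expressed class A orphans split evenly at day 1, with 5 higher and 5 lower, and at day 12 held 5 higher and 3 lower. The 5 higher genes were Gpr176, Gpr173, Gpr85, Gpr161 and Gpr63 in both comparisons, which share their day 0 libraries. Gpr176 (chr2:118277110-118373419, minus strand), an orphan known from the circadian pacemaker of the brain and able to couple to Gz, is described first. Its level was 38.6, 36.3, 36.9, 38.0 and 39.9 CPM at day 0, 81.0, 84.8, 74.8, 81.2 and 85.6 at day 1 and 91.1, 85.3, 96.9, 97.0 and 98.7 at day 12. Both cooled groups lay above every day 0 library and overlapped each other. Gpr176 was 2.15-fold higher at day 1 (log2 1.10 ± 0.0413 SE, adjusted p = 5.3e-17, edgeR) and 2.47-fold higher at day 12 (log2 1.31 ± 0.0413, adjusted p = 7.44e-19).

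Gpr27, Gpr85 and Gpr173 form a family of closely conserved orphans named for their expression in brain. Gpr173 (chrX:152343598-152368704, minus strand) was measured at 1.33, 1.70, 1.67, 1.49 and 1.80 CPM at day 0, 6.17, 6.47, 5.47, 6.19 and 5.22 at day 1 and 4.97, 4.93, 3.69, 4.03 and 4.12 at day 12. Its day 1 libraries lay above all others and its day 12 libraries above all of day 0. Gpr173 was 3.70-fold higher at day 1 (log2 1.89 ± 0.106 SE, adjusted p = 8.33e-14, edgeR) and 2.73-fold higher at day 12 (log2 1.45 ± 0.107, adjusted p = 8.72e-12). Gpr85 (chr6:13834458-13839942, minus strand) was measured at 1.90, 2.00, 1.35, 1.58 and 1.88 CPM at day 0, 2.37, 3.67, 3.49, 3.03 and 2.96 at day 1 and 4.52, 3.46, 4.93, 4.05 and 4.40 at day 12. All cooled libraries lay above day 0 (log2 0.83 ± 0.130 SE at day 1 and 1.29 ± 0.128 at day 12, both called). Gpr27 went the other way at a level under 1 CPM, with 0.230, 0.398, 0.226, 0.307 and 0.360 CPM at day 0, 0.205, 0.222, 0.130, 0.126 and 0.215 at day 1 and 0.0902, 0.0378, 0.0486, 0.0855 and 0.0310 at day 12. The 3 groups did not overlap. Its day 12 decrease (log2 -2.35 ± 0.382 SE, adjusted p = 6.04e-06, edgeR) held in all alternatives that tested it, whereas the day 1 call (log2 -0.74 ± 0.325, adjusted p = 0.0443) was lost in DESeq2 (adjusted p = 0.0511), among others.

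Gpr161, a receptor of the primary cilium that restrains hedgehog signalling, rose at both days. It ranged over 1.46 to 1.66 CPM (day 0), 2.47 to 3.21 CPM (day 1) and 2.72 to 3.99 CPM (day 12), and every cooled library lay above day 0 (log2 0.82 ± 0.118 and 1.05 ± 0.117 SE). Gpr63, a brain-enriched orphan, ranged over 0.388 to 0.720 CPM (day 0), 0.754 to 1.21 CPM (day 1) and 0.858 to 1.72 CPM (day 12), again without overlap with day 0 (log2 0.83 ± 0.229 and 1.20 ± 0.225 SE). In GENCODE, 8.42% of its exon bases lie opposite another gene and 4.17% on the same strand.

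Gpr146 (chr5:139377697-139396415, plus strand), an orphan implicated in cholesterol handling by the liver, is annotated upstream of Gpr30 on the same strand of chromosome 5. Its level was 18.0, 17.7, 17.9, 17.2 and 18.9 CPM at day 0, 9.07, 10.4, 9.36, 8.70 and 11 at day 1 and 6.69, 7.66, 7.80, 8.55 and 8.32 at day 12. The groups did not overlap, in the order opposite to that of Gpr30. Gpr146 was 1.85-fold lower at day 1 (log2 -0.88 ± 0.0650 SE, adjusted p = 1.33e-11, edgeR) and 2.30-fold lower at day 12 (log2 -1.20 ± 0.0660, adjusted p = 3.22e-14).

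The orphans Gpr149 and Gpr162 were called lower at day 1 and not at day 12, with overlapping libraries. Gpr149 ranged over 0.677 to 1.41 CPM (day 0), 0.522 to 0.901 CPM (day 1) and 0.385 to 1.03 CPM (day 12) (log2 at day 1 -0.65 ± 0.242 SE), and its call was lost without replicate 2 of day 0 or replicate 3 of day 1. Gpr162 ranged over 0.182 to 0.474 CPM (day 0), 0.0555 to 0.265 CPM (day 1) and 0.0757 to 0.381 CPM (day 12) (log2 at day 1 -1.04 ± 0.434 SE), and its call was lost in 6 of the 15 fits without 1 library, without the count filter and within the larger number series of library titles. Its day 12 value (log2 -0.78) became a call without replicate 1 of day 12 (-1.30, adjusted p = 0.0106, edgeR). Of the 3 comparisons, Gpr135 was called between day 1 and day 12 (log2 1.05 ± 0.355 SE), at 0.126 to 0.228 CPM at day 1 and 0.128 to 0.619 CPM at day 12, and without replicate 3 of day 12 that call was lost (log2 0.79, adjusted p = 0.0614 by edgeR), as it was within the 11 libraries whose titles carry the larger of the library number series (0.80, adjusted p = 0.146). Its day 1 value against day 0 (log2 -0.76) was called lower with the replicate block (-0.81, adjusted p = 0.0321, edgeR), in the fit of those 2 groups alone (adjusted p = 0.0256), in DESeq2 (adjusted p = 0.0464) and without replicate 4 of day 12 (adjusted p = 0.0382). Gpr153, an orphan that was called in no comparison, stood at 37.7 ± 0.984, 36.9 ± 1.53 and 49.5 ± 2.23 CPM (SD, n = 5).

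Adhesion receptors carry long extracellular regions that bind matrix or neighbouring cells. Of the 10 expressed, 2 fell and none rose at day 1, whereas at day 12, 2 rose and 3 fell. Gpr124 (Adgra2, chr8:27085583-27123436, plus strand), a co-receptor for Wnt ligands known from brain vessels, rose at day 12 only. Its level was 130.0, 133, 132, 127 and 125 CPM at day 0, 126, 123, 111, 115 and 122 at day 1 and 247, 257, 247, 260.0 and 247 at day 12. The day 12 libraries lay far above the others, which overlapped. Gpr124 was 1.94-fold higher at day 12 against day 0 (log2 0.96 ± 0.0313 SE, adjusted p = 1.4e-18, edgeR) and 2.11-fold higher against day 1 (log2 1.08 ± 0.0315, adjusted p = 4.47e-19). Endothelial markers were low, with a sum over 6 genes of 0.535 to 0.708 CPM at day 0 and 0.921 to 1.53 CPM at day 12. At day 12, 2 of the 3 tested, Pecam1 and Kdr, were higher (2.48-fold and 2.83-fold), and Tek was not called (log2 -0.89). The part of the endothelial markers in the rise of Gpr124 was not tested. The related Gpr125 (Adgra3) was not called, at 41.1 ± 1.46, 58.6 ± 1.61 and 51.0 ± 1.02 CPM (SD, n = 5).

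Gpr64 (Adgrg2, chrX:160390690-160498070, plus strand), an adhesion receptor known from the epididymis, moved opposite to Gpr124. Its level was 89.2, 86.7, 91.6, 87.8 and 90.7 CPM at day 0, 104, 107, 124, 115 and 107 at day 1 and 49.9, 47.0, 55.2, 49.6 and 50.4 at day 12. The 3 groups did not overlap, with day 1 highest and day 12 lowest. The day 1 difference (log2 0.32 ± 0.0421 SE) stayed under the fold limit. At day 12 Gpr64 was 1.77-fold lower against day 0 (log2 -0.82 ± 0.0431, adjusted p = 1.28e-14, edgeR) and 2.21-fold lower against day 1 (log2 -1.14 ± 0.0433, adjusted p = 5.98e-17).

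Gpr126 (Adgrg6, chr10:14402583-14545659, minus strand) is needed for myelination by Schwann cells and binds collagen IV and laminin. Its level was 4.52, 4.74, 4.15, 4.16 and 3.94 CPM at day 0, 2.20, 3.64, 2.85, 1.98 and 2.18 at day 1 and 4.94, 3.42, 5.06, 4.72 and 4.19 at day 12. The day 1 libraries lay below all of day 0, and day 12 overlapped both. Gpr126 was 1.68-fold lower at day 1 (log2 -0.75 ± 0.133 SE, adjusted p = 2.4e-05, edgeR) and 1.74-fold higher at day 12 relative to day 1 (log2 0.80 ± 0.134, adjusted p = 1.24e-05), with a day 12 difference from day 0 of log2 0.05 ± 0.127. Markers of Schwann cells and melanocytes summed to 60.7 to 64.5 CPM at day 0, 73.7 to 81.3 at day 1 and 64.5 to 73.6 at day 12, nearly all of it S100b, with Sox10 without counts at day 12, and their part in the values of Gpr126 was not tested.

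The adhesion receptors described next were under 1 CPM. Gpr116 (Adgrf5), known from lung epithelium and vessels, was higher at day 12, with 0.0238 to 0.0885 CPM at day 0 and 0.171 to 0.381 at day 12 (log2 2.08 ± 0.502 SE). These values rest on 3 to 9 counts per library at day 0 and 12 to 38 at day 12, with 1 to 12 at day 1. Only at day 12 did every library reach the filter's minimum count of 10, so its test depends on the group where it was high. The endothelial markers Pecam1 and Kdr were higher at day 12 as well, at 0.810 and 0.261 CPM against 0.324 and 0.0928 at day 0. The other tested marker, Tek, was not called, at 0.101 CPM against 0.189 (log2 -0.89 ± 0.545 SE). Of the untested ones, Cdh5 stood higher at day 12 (0.0386 CPM against 0.00218). Emcn and Tie1 stood lower (0.00243 and 0.00972 CPM against 0.00415 and 0.0126). The part of the endothelial markers in the rise of Gpr116 and Gpr4 was not tested. The 6 epithelial markers summed to at most 1.74 CPM in any library. The only one tested, Krt10, was higher at day 12 too, at 1.49 CPM against 0.754 (log2 1.00 ± 0.234 SE, adjusted p = 0.000462, edgeR). The untested Cdh1 and Epcam stood lower at day 12, at 0.0147 and 0.00453 CPM against 0.0621 and 0.0123 at day 0. Krt5, Krt14 and Krt1 had no counts at day 12. The part of the epithelial markers in the rise of Gpr116 was not tested either. Gpr133 (Adgrd1) was lower at day 12, at 0.0252 to 0.130 CPM against 0.125 to 0.541 (log2 -2.17 ± 0.548 SE), with overlapping libraries. Its day 1 value was not called (log2 -1.08, adjusted p = 0.0539, edgeR). It became a call without replicate 4 or 5 of day 0 or replicate 2 of day 1 (-1.28 to -1.66). Gpr98 (Adgrv1), the very large receptor of hair cell stereocilia, was lower at day 1 (log2 -0.70 ± 0.296 SE, adjusted p = 0.0374, edgeR) and higher again relative to that at day 12 (log2 1.15 ± 0.293, adjusted p = 0.00137). The day 1 call of Gpr98 was lost without any of 7 single libraries.

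Class C orphans are relatives of the metabotropic glutamate and GABA-B receptors. Gpr179, a scaffold of retinal bipolar cells, ranged over 0.506 to 0.910 CPM (day 0), 0.139 to 0.403 CPM (day 1) and 0.0143 to 0.255 CPM (day 12) (log2 -1.12 ± 0.354 at day 1 and -2.59 ± 0.403 SE at day 12). It was lower in both comparisons and at day 12 against day 1 (log2 -1.47 ± 0.429). Within the same 11 libraries of the larger number series, the day 1 value of Gpr179 was -0.73 and no longer called.

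The 10 expressed genes of multi-pass proteins outside the receptor classes, with the pseudogene Gpr137b-ps counted among them, include several of the most abundant Gpr-named genes. At day 1, 2 rose and 2 fell, and at day 12, 2 fell and none rose. Gpr137b (chr13:13357620-13394014, minus strand), a lysosomal membrane protein linked to mTORC1 signalling, was measured at 98.4, 85.1, 88.9, 98.6 and 97.3 CPM at day 0, 155, 157, 149, 152 and 160.0 at day 1 and 75.6, 78.3, 79.9, 83.5 and 78.9 at day 12. Every day 1 library lay above all others. The level was 1.65-fold higher at day 1 (log2 0.72 ± 0.0374 SE, adjusted p = 1.95e-14, edgeR) and 1.95-fold lower at day 12 relative to day 1 (log2 -0.97 ± 0.0378, adjusted p = 1.15e-16), while day 12 against day 0 was log2 -0.24 ± 0.0377 and not called. Gpr137b-ps is annotated on the same chromosome (chr13:12615057-12650388, minus strand) as a transcribed unprocessed pseudogene. Its name marks it as a copy of Gpr137b, so the division of reads between them is uncertain. The pseudogene ranged over 8.99 to 11.5 CPM (day 0), 16.7 to 20.5 CPM (day 1) and 11.1 to 14.6 CPM (day 12) and was higher at day 1 (log2 0.90 ± 0.0714 SE). Its day 12 difference from day 1 (log2 -0.58 ± 0.0710) missed the fold limit by a small margin. It was called with the replicate block (-0.59), in DESeq2 (-0.59), with DESeq2 size factors (-0.59), with the number series as a covariate (-0.59) and without replicate 3 of day 1 or replicate 1, 2 or 4 of day 12 (-0.59 to -0.64).

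Gpr137c, a relative of Gpr137b with 0.0531 CPM per kb at day 0 against 18.6 for the latter, fell at both days. It ranged over 0.345 to 0.720 CPM (day 0), 0.0256 to 0.137 CPM (day 1) and 0.0126 to 0.114 CPM (day 12), and no cooled library reached the day 0 range (log2 -2.42 ± 0.391 and -2.62 ± 0.398 SE). Gpr155 (chr2:73341506-73386572, minus strand), a lysosomal protein that senses cholesterol, was lower at day 1, where it ranged from 2.82 to 3.67 CPM against 4.78 to 6.32 at day 0 (log2 -0.69 ± 0.0936 SE, adjusted p = 5.21e-07, edgeR). At day 12 it ranged from 3.75 to 4.81 CPM and was not called (log2 -0.39 ± 0.0920). Gpr157 (chr4:150087365-150105927, plus strand), found at the cilium of neural progenitors, was lower at day 12, from 3.66 to 4.40 CPM against 5.67 to 6.31 (log2 -0.60 ± 0.0793 SE, adjusted p = 2.55e-07, edgeR). That value lies at the fold limit, and its call was lost with scaling to total counts (log2 -0.41) and without replicate 1 or 2 of day 0 or replicate 4 of day 12 (-0.58 in each). Among multi-pass proteins without a call, Gpr107, a Golgi protein, stood at 106 ± 4.89, 106 ± 3.28 and 85.5 ± 1.37 CPM and Gpr108 at 90.7 ± 2.36, 78.7 ± 2.62 and 62.0 ± 0.982 CPM (SD, n = 5).

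Receptors for metabolites that carry other names were listed for comparison. Of 15 tested, 5 fell (33.3%, against 13.4% of all tested genes) and none rose (against 7.71%) at day 1. At day 12, 6 fell (40%, against 16.2%) and 2 rose (13.3%, against 13.0%). The medians were -0.46 and -0.53. P2ry6, a receptor for the nucleotide UDP, went from 46.2 CPM at day 0 to 17.4 and 11.1 (log2 -2.05 ± 0.0531 SE at day 12). Adora1, the adenosine receptor that inhibits lipolysis, stood at 34.8, 41.0 and 15.6 CPM and was lower at day 12 (log2 -1.16 ± 0.0475 SE). Ptger4 and Ptgir, receptors for prostaglandins, were lower at day 1 (log2 -0.80 and -0.81). Neither was called at day 12 against day 0 (log2 -0.57 and 0.22), and Ptgir was higher at day 12 against day 1 (log2 1.04). The 2 that rose at day 12 were Adora2a (log2 2.03) and Cnr1 (log2 0.95). Of 8 tested lysophospholipid receptors, 1 rose and 2 fell at day 1 (12.5% and 25%), and 2 rose and 3 fell at day 12 (25% and 37.5%). S1pr3, a sphingosine-1-phosphate receptor, stood at 334, 160.4 and 183 CPM and was lower at both days. Lpar4 (log2 -0.97) was lower and S1pr2 (0.61) and Lpar2 (0.93) were higher at day 12. Of the 4 tested genes of the Gprc5 family, whose names do not match the rule, Gprc5a was higher (log2 0.70) and Gprc5c lower (-1.08) at day 12 and none was called at day 1.

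Genes that act downstream of the receptors were counted by list. All 13 G alpha subunits were tested. Against day 0 none was higher, against 7.71% of all tested genes at day 1 and 13.0% at day 12. At day 1, 2 were lower (15.4%, against 13.4%), and at day 12, 3 were lower (23.1%, against 16.2%). Gnaz, the subunit of Gz to which Gpr176 can couple, stood at 1.05 ± 0.161, 0.129 ± 0.0691 and 0.280 ± 0.128 CPM (SD, n = 5) and was lower at both days (log2 -2.98 ± 0.328 and -1.88 ± 0.294 SE). Gnaz was also the 1 subunit called higher at day 12 against day 1 (log2 1.10 ± 0.364 SE, adjusted p = 0.0106, edgeR). Gnao1 was lower at day 12 (log2 -0.74). Gna15, at 0.209, 0.0841 and 0.0304 CPM, was lower at both days. The medians of 14 tested RGS proteins, which shorten G protein signals, were -0.35 and -0.63, and none was higher. At each day 6 were lower, which is 42.9%, against 13.4% of all tested genes at day 1 and 16.2% at day 12. These included Rgs17 (log2 -0.83 and -1.37), Rgs10 (-0.74 and -0.73), Rgs7 (-0.59 and -1.61) and Rgs20 (-1.04 and -0.84). Of 7 tested receptor kinases and arrestins, 1 was higher at day 1, and at day 12 Grk6 (0.69) and Arrb2 (0.84) were higher and Grk5 (-0.65) and Arrb1 (-1.21) lower.

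**Figure D4:**
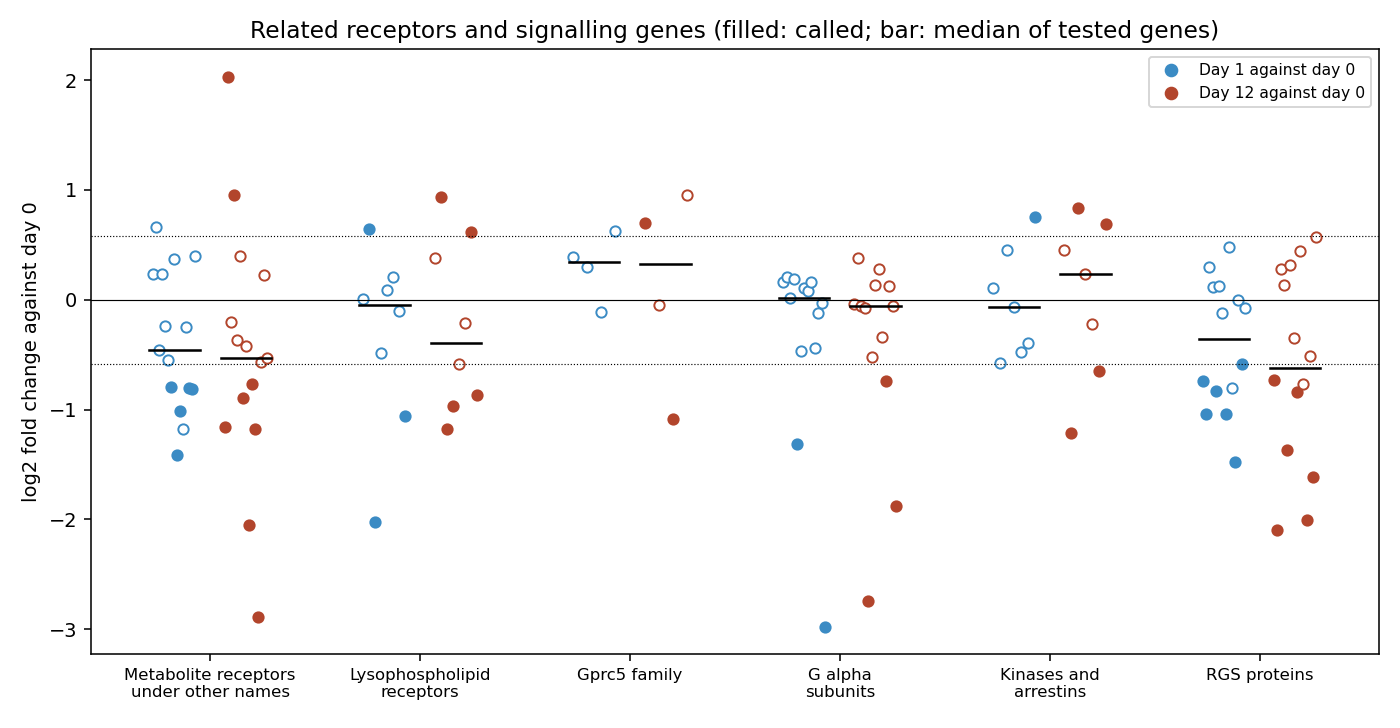
Log2 fold change against day 0 of the tested genes in 6 lists of related receptors and signalling genes, at day 1 (blue) and day 12 (red), with filled points called and a bar at each median. No G alpha subunit and no RGS protein was called higher against day 0, where 7.71% (day 1) and 13.0% (day 12) of all tested genes were.

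A list of ligands and ligand-making enzymes, some of them for receptors not described above, held 18 tested genes. At day 1, 1 rose and 1 fell (5.56% each, against 7.71% and 13.4% of all tested genes). At day 12, 2 rose and 4 fell (11.1% and 22.2%, against 13.0% and 16.2%). Rarres2, which encodes the Gpr1 ligand chemerin, stood at 425, 417 and 81.0 CPM and was lower at day 12 (log2 -2.39 ± 0.0333 SE), beside a receptor Gpr1 with at most 18 counts in a library. Col3a1, the collagen bound by Gpr56, was lower at day 12 (log2 -0.79). Ch25h, which makes an oxysterol, fell at day 1 and rose at day 12, at 13.1, 8.30 and 36.9 CPM. Enpp2, the enzyme that makes lysophosphatidic acid, was higher at day 1 (log2 0.68).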

How the data were processed

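The authors aligned reads to mm10 with TopHat2 2.0.13 and Bowtie2 2.2.1 and counted them per gene with HTSeq. The deposited counts were used. Strandedness and annotation release were not given in the sources used here. The authors also deposited regularized log2 values and DESeq2 tables of log2 fold changes and p-values, which were not used. Groups came from the labels, with 5 libraries each.

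Genes were filtered with filterByExpr (minimum count 10), scaled by TMM (factors 0.9459 to 1.094) and tested with edgeR 4.0.16 (quasi-likelihood, all 15 libraries, no covariate) in R 4.3.3 over 14293 genes. The standard error was the log2 fold change divided by the square root of F. Coordinates, exon lengths and overlaps came from GENCODE (GRCm38, the same build as mm10), where 85 of 86 genes matched, and promoters from RefSeq, where 62 had an entry. On simulated data 200 genes were changed for day 12 against day 0, with 14255 genes tested. Of these, 100 of 100 were recovered at a log2 change of 1 and 100 of 100 at 2, with 0 false calls. Recovery was not split by level, so it cannot speak for calls of genes with few counts. A count of 0 allows 0.0238 to 0.0428 CPM (3 counts).

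Genes named were those called against day 0, the 5 highest per kilobase and those called at day 12 against day 1 only. Also named were up to 4 uncalled examples, up to 4 called genes per related list (more for the metabolite receptors) and some marker genes. The exception was 3 genes that are counted but not reported by name here. The members and lists were chosen with earlier results of these data known, and Gpr44 was placed in its class after the table was seen. Alternatives were DESeq2 1.42.0, other scalings, filters and thresholds, 2-group fits, the library number series in the titles, a replicate block and leaving out each library.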

Additional observations from a re-analysis of the deposited data

Results flagged for a closer look

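In 90 sets of 5 libraries (30 named genes in 3 groups), the gap between the most extreme library and its neighbour was divided by the range of log2(CPM + 0.1) and set against Dixon's limit of 0.71, which chance passes in about 1 of 20 sets. A total of 4 passed it. Gpr4 in replicate 3 of day 12 gave 0.717 (0.291 CPM against 0.171). Gpr149 in replicate 4 of day 12 gave 0.818 (0.385 CPM against 0.87). Gpr75 in replicate 5 of day 1 gave 0.755 (0.0588 CPM against 0.279). Gpr137b-ps in replicate 3 of day 1 gave 0.825 (16.7 CPM against 19.8). The calls of Gpr75 against day 0 were the same without replicate 5 of day 1.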

How the results depend on the processing

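Counts of called Gpr-named genes moved most with the filter and when the fold limit was left out. With a mean of at least 1 CPM, 27 Gpr-named genes were tested, and 7 fell at day 1, 6 rose and 7 fell at day 12, and 4 rose and 5 fell between days 1 and 12, since fewer genes were tested. Without a filter, 12 of 86 were higher and 23 lower at day 12, against 2009 and 2684 of all 18804 genes. On the adjusted p alone, 12 rose and 20 fell at day 1, against 5049 and 5177 of all 14293 tested genes. At day 12, 16 rose and 19 fell (against 5608 and 5342). Between days 1 and 12, 14 rose and 16 fell (against 4908 and 4690). With a replicate block, day 1 gave 8 higher and 14 lower, day 12 gave 11 and 13, and day 12 against day 1 gave 10 and 9. Replicate numbers did not pair the libraries (correlations of -0.0591 to 0.0991). Within the 11 libraries of the larger number series, the counts were 9 and 10, 12 and 13, and 9 and 7. Leaving out 1 library at a time gave 8 to 9 rises and 11 to 15 falls at day 1, 11 to 12 and 12 to 14 at day 12, and 9 to 10 and 7 to 9 between days 1 and 12. DESeq2 gave 8 and 14, 11 and 13, and 10 and 9.

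Among the named genes, direction reversed only for differences that were not called. The day 1 value of Gpr116 was -0.34 to 0.52, negative without replicate 1 of day 0 or replicate 2 or 4 of day 1. That of Gpr77 was -0.018 with the number series as a covariate, -0.27 within the larger series, and -0.29 to 0.23 when leaving out 1 library, negative without replicate 2 or 4 of day 0 or replicate 5 of day 1. That of Gpr84 was -0.18 to 0.49, negative without replicate 2 of day 1. Between days 1 and 12, Gpr137c was -0.41 to 0.090, positive without replicate 2 of day 12 or 5 of day 1, and Gpr162 was -0.26 to 0.53, negative without replicate 1 of day 12. The causes were not tested. Genes under 1 CPM rest on few counts, and 41 genes were too low to test.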
